A study of Homo sapiens with 4 samples.

Results

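C/D box small nucleolar RNAs (SNORD genes) were followed in naïve human ESCs grown in 2-D and in 3-D culture. Members were chosen by symbol and by abundance, as all genes whose GENCODE symbol starts with SNORD and whose raw counts summed to 20 or more over the 4 libraries, which held for 82 of the 314 SNORD genes among 60564 genes in the files. The cells were Elf1, an established naïve human ESC line. The 2-D grown cells adhered to Matrigel-coated plastic, whereas the 3-D grown cells were enclosed as single cells in self-assembling scaffolds (PEG-8-SH/PEG-8-Acr) and kept there for 21 days, both in ESC expansion medium. Each condition had 2 libraries (replicate 1 and replicate 2), labelled as biological replicates of this single line, so the spread between libraries does not cover other lines. Ribosomal RNA was depleted before sequencing, and the values are read counts per gene.

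C/D box snoRNAs are short nucleolar RNAs that carry a box C near the 5′ end and a box D near the 3′ end and bind the proteins fibrillarin, NOP56, NOP58 and SNU13. Most guide fibrillarin to a base of ribosomal RNA or of the spliceosomal U6 RNA, where it adds a methyl group to the ribose. A few, such as U3, U8, U13, U14 and U22, act in the cleavage or modification of the ribosomal RNA precursor. Most human C/D snoRNAs are cut out of introns of host genes after splicing, while U3, U8 and U13 are made from promoters of their own, and large arrays of C/D snoRNAs without known ribosomal RNA targets lie in the imprinted regions of chromosomes 14 and 15.

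The sequences of the RNAs on which the results turn are given 5′ to 3′ as DNA letters of hg38, with capitals for box C (letters TGATGA, searched in the first 20 bases) and box D (letters CTGA, searched in the last 20 bases), each on the strand of the gene only. In the U3 RNA the capitals mark the box C that lies downstream in the molecule, with the box D at its end. SNORD3A is the RefSeq span of U3 (chr17:19188016-19188232, plus strand), and the GENCODE gene on which reads were counted runs on to 699 bases. SNORD114-21 (chr14:100981975-100982046, plus strand), SNORD114-20 (chr14:100981004-100981075, plus strand), SNORD114-31 (chr14:100993236-100993310, plus strand) and SNORD113-3 (chr14:100929919-100929990, plus strand) lie in introns of the imprinted long noncoding RNA MEG8 and show how alike the members of that array are. SNORD12C (chr20:49278940-49279028, plus strand, intron of ZFAS1) and SNORD94 (chr2:86135870-86136006, plus strand, intron of PTCD3) were called lower in 3-D. SNORD14A (chr11:17074654-17074744, minus strand, intron of RPS13) and SNORD99 (chr1:28578749-28578822, minus strand, intron of SNHG12) are shown for contrast, as their fitted changes were above 0.
SNORD3A: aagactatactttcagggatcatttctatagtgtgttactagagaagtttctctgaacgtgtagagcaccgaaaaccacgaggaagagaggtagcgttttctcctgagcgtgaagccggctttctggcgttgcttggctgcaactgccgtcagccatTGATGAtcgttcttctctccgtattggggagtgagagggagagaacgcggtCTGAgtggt
SNORD114-21: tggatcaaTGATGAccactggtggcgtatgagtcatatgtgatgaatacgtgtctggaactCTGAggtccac
SNORD114-20: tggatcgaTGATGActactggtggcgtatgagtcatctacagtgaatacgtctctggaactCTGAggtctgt
SNORD114-31: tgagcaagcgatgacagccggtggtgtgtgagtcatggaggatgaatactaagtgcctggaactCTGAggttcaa
SNORD113-3: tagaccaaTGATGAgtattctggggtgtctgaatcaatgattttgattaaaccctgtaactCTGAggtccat
SNORD12C: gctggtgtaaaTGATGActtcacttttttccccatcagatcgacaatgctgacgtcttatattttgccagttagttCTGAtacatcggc
SNORD94: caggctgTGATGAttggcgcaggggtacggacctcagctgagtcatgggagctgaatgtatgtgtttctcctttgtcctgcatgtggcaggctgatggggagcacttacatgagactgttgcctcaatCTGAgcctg
SNORD14A: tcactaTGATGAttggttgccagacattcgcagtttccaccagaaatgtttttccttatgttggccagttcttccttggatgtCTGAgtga
SNORD99: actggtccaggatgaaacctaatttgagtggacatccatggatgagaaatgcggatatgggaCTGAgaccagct

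SNORD114-31 and SNORD99 hold no exact TGATGA in the window searched. Both boxes were found in 52 of the 82 members (63.4%) and in 144 of the 232 other SNORD genes (62.1%), against 0 of the windows of the same length directly upstream of the SNORD genes. Members were 66 to 791 bases long with a median of 78 bases, and their median GC content was 44.6%. The longest were the GENCODE genes of the U3 family, whose RefSeq RNAs are 217 bases each. Aligned over those 217 bases, SNORD3B-1 and SNORD3B-2 were identical to each other and each differed from SNORD3A by A78C, while SNORD3C differed from SNORD3A by G108A (positions counted from the 5′ end, SNORD3A base first). SNORD114-21 and SNORD114-20 were identical at 61 of 72 aligned positions (84.7%).

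Counts summed to between 18276147 and 33833778 per library, with both 3-D libraries below both 2-D libraries, so 3-D values rest on fewer reads. Pluripotency genes were expressed in both conditions: LIN28A reached a mean of 1765 CPM in 2-D and 1766 CPM in 3-D and NANOG 198 and 209.9 CPM, whereas the naïve markers ranged from TFCP2L1 (23.0 and 22.2 CPM), KLF4 (9.32 and 9.91 CPM) and DPPA3 (6.72 and 6.35 CPM) down to KLF17 (0.70 and 0.98 CPM) and DPPA5 (0.12 and 0.049 CPM). The fibroblast markers DCN and LUM were also below 1 CPM, while COL1A1, COL1A2 and THY1 had condition means of 75.5 to 321 CPM. COL1A1 (log2 fold change 0.29, adjusted p = 0.000779) and THY1 (0.22, adjusted p = 0.00453) were called higher in 3-D by the edgeR test described next, and their part in the snoRNA values was not tested. The share of mitochondrially encoded genes was 5.30% and 5.10% in 2-D but 8.50% and 8.33% in 3-D. The edgeR quasi-likelihood test called 1782 of 22555 genes tested (7.9%) at a Benjamini-Hochberg adjusted p below 0.05, 1024 of them higher (4.54%) and 758 lower (3.36%) in 3-D. In bulk RNA, fewer cells that express a gene and less of its RNA per cell cannot be told apart, and an exact two-sided permutation test of 2 against 2 libraries cannot go below p = 0.333.

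More SNORD genes were fitted below 0 than above it in 3-D grown cells, and no member was called higher in the main edgeR fit. Other edgeR fits of the 4 libraries did call members higher. These were 1 with the likelihood ratio test, 4 with a replicate block (replicate number in the model) and 6 without a filter on low counts. Over all genes, the same fits called 651 of 22555, 1223 of 22555 and 1358 of 42231 higher. Calls also moved with the library left out, as given below. Of the 66 members that passed the filter on low counts, 6 were called lower (9.09%, beside 3.36% of all genes tested) and 0 higher (beside 4.54%). At an unadjusted p below 0.05, 15 members were lower and 4 higher, beside 10.2% and 11.1% of all genes. DESeq2 called 0 members higher and 1 lower (SNORD3A), beside 509 and 285 of 42231 genes fitted, with an adjusted p for 6 members only. The 6 called members were SNORD3A, SNORD3B-2, SNORD114-21, SNORD114-20, SNORD12C and SNORD94. Fitted log2 fold changes lay below 0 for 50 of the 66 members (75.8%, beside 11283 of all 22555 genes), and the median without SNORD3A was -0.21, beside -0.00014 over all genes. Both 3-D libraries lay below both 2-D libraries in 22 tested members (33.3%, beside 25.1% of all genes) and above them in 5 (7.58%, beside 25.4%). The 16 members not tested had 21 to 57 counts in all.

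**Figure D1:**
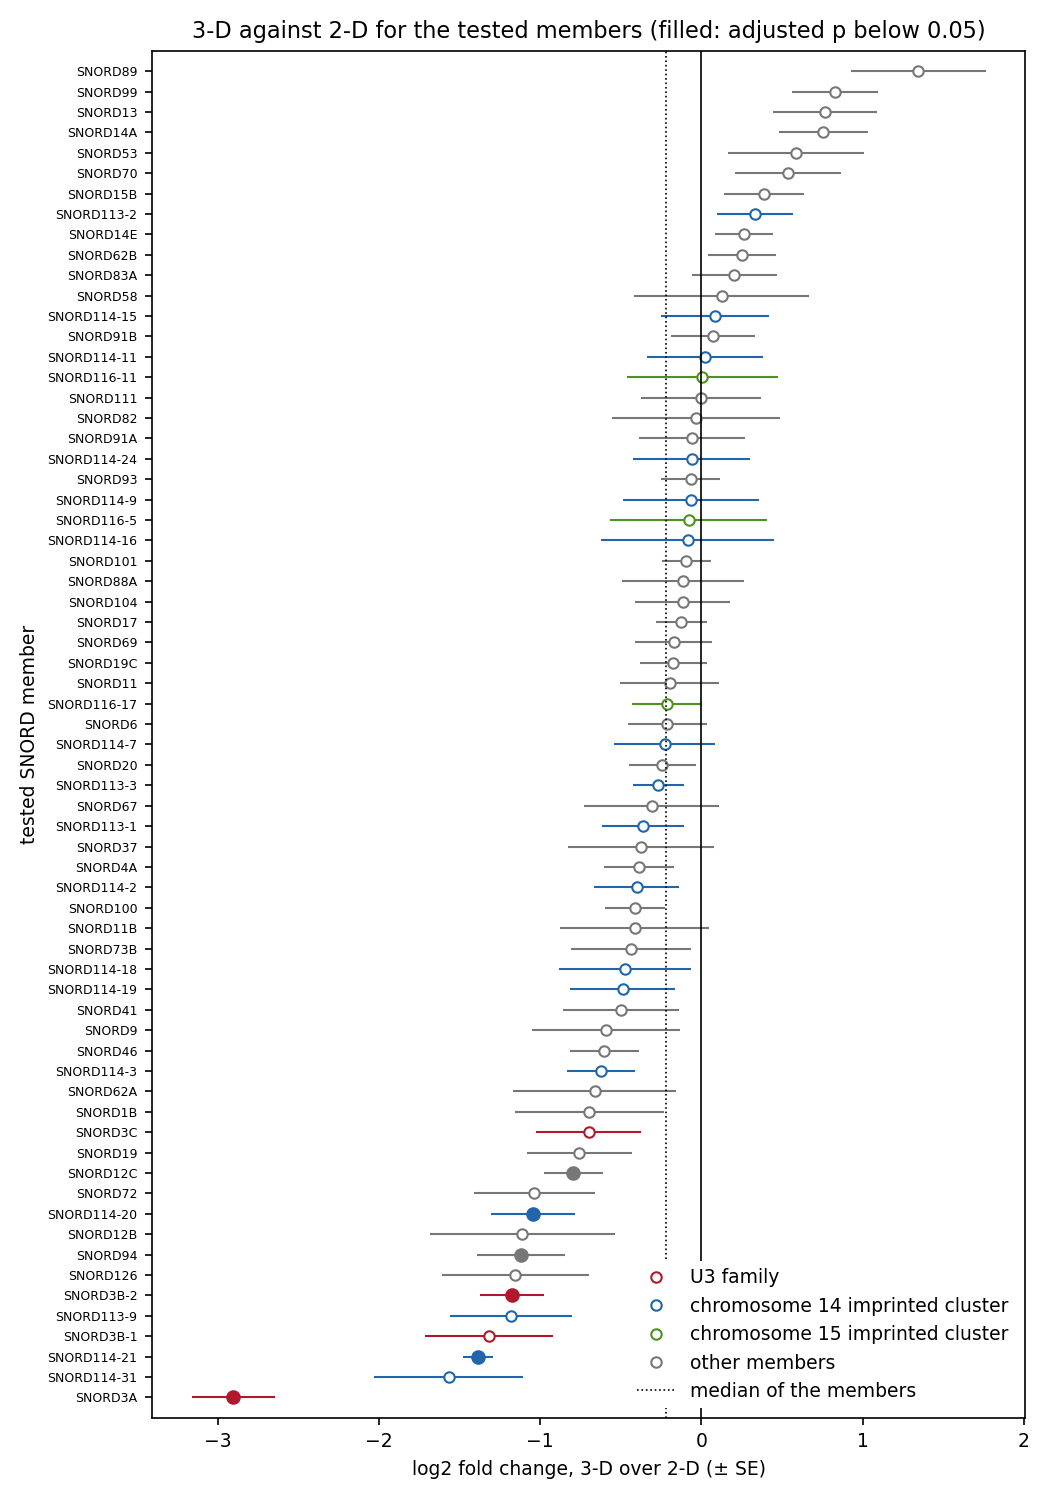
Fitted log2 fold change of 3-D over 2-D (x axis, ± SE from edgeR, 2 libraries per condition) for the 66 tested SNORD members (y axis), coloured by group, with filled points for an adjusted p below 0.05 and a dotted line at the median. Of the 66 points, 50 lie left of 0, and the 6 filled points, SNORD3A at -2.90 the farthest, are all left of it.

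SNORD3A, the most highly counted gene of U3, fell in 3-D grown cells with the largest fitted change of the tested members. U3 base-pairs with the ribosomal RNA precursor and is needed for the cleavages that release the 18S RNA. SNORD3A had 177251 and 138419 counts in 2-D, against 18419 and 6997 counts in 3-D. Normalized by TMM, these were 5147 and 4492 CPM in 2-D against 896 and 390.3 CPM in 3-D, so the lower 2-D library stood far above the higher 3-D library. The mean of 643 ± 358 CPM in 3-D (SD, n = 2) was 7.49-fold below the mean of 4819 ± 463 CPM in 2-D (SD, n = 2). The fitted log2 fold change was -2.90 (SE 0.26, edgeR adjusted p = 3.40e-05). The 3-D libraries themselves differed 2.30-fold, and the change was called without either of them, at -3.63 without 3-D replicate 1 and -2.43 without 3-D replicate 2.

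SNORD3A held most counts of the class in both conditions, and a smaller share in 3-D. Per length it reached 6895 CPM per kilobase of its GENCODE gene in 2-D and 920.2 in 3-D, and SNORD114-21 followed in 2-D with 256 CPM per kilobase. SNORD3A took 0.524% of all counts in 2-D replicate 1 (95% exact binomial interval 0.521 to 0.526%, counting error only) and 0.460% in 2-D replicate 2 (0.457 to 0.462%). In 3-D it took 0.0871% (0.0858 to 0.0883%) and 0.0383% (0.0374 to 0.0392%). Of the counts on all members, SNORD3A held 91.9% and 92.9% in 2-D but 70.6% and 67.4% in 3-D. These counts cannot separate SNORD3A from its copies with certainty, since the counting of reads that map to several genes was not given in the sources used here and SNORD3A has 4 near-identical copies in hg38 by alignment (at least 98% identity over at least 80% of the gene).

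The other U3 genes all lay lower in 3-D on average, and 1 of the 3 was called. SNORD3B-2 had 62.7 and 53.2 CPM in 2-D and 34.1 and 16.7 CPM in 3-D, without overlap, and fell by 1.18 on the log2 scale (SE 0.20, edgeR adjusted p = 0.00303, but 0.142 with DESeq2). The fitted change moved to -1.80 when 3-D replicate 1 was left out and to -0.76 when 3-D replicate 2 was. SNORD3B-1 had 129 and 49.2 CPM in 2-D and 52.0 and 18.6 CPM in 3-D. Its conditions overlapped, because the 2-D libraries differed 2.62-fold, and its log2 fold change of -1.32 was not called (SE 0.40, adjusted p = 0.0655). SNORD3C had 46.7 and 34.4 CPM against 37.9 and 11.4 CPM, also overlapping, with a log2 fold change of -0.70 (SE 0.32, adjusted p = 0.239). SNORD3B-1 and SNORD3B-2 share 1 sequence over the U3 span, and how their reads were divided was not given in the sources used here. In every U3 gene, 3-D replicate 2 was the lowest library.

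**Figure D2:**
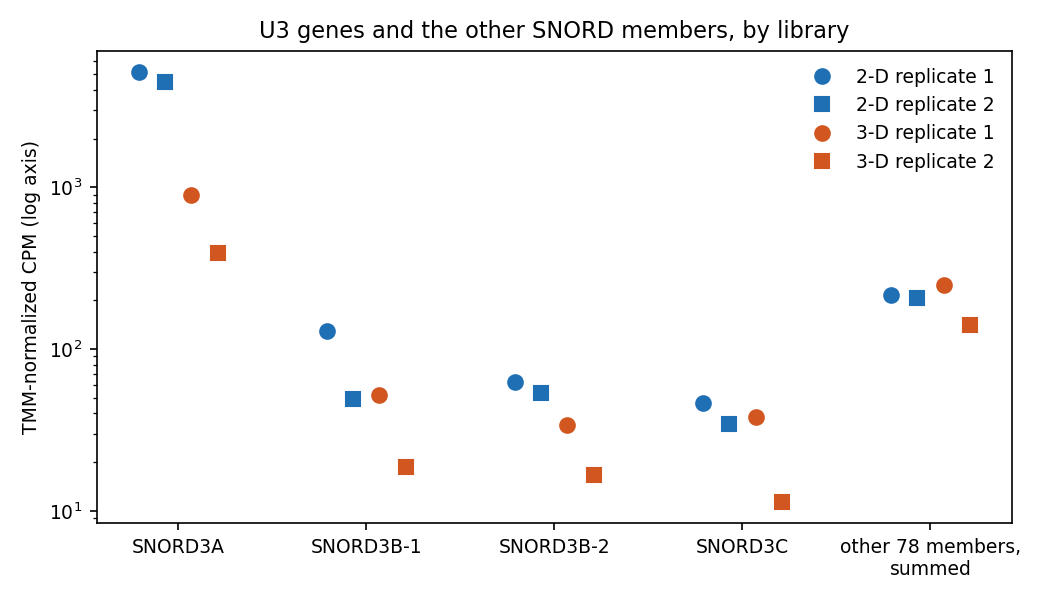
TMM-normalized CPM (y axis, log scale) of the 4 U3 genes and of the sum over the other 78 members (x axis) in each library, 2-D in blue and 3-D in orange, circles for replicate 1 and squares for replicate 2. SNORD3A lies at 4492 CPM or more in 2-D and at 896 CPM or less in 3-D, while the other members summed to 215 and 207 CPM in 2-D and to 248 and 142 CPM in 3-D, 1 library above and 1 below the 2-D libraries.

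None of the other measured precursor-processing snoRNAs was called. U13 (SNORD13), which is linked to acetylation of the 18S RNA, had 23.9 and 19.4 CPM in 2-D and 55.2 and 17.9 CPM in 3-D. Only 3-D replicate 1 stood out, the conditions overlapped, and the log2 fold change of 0.77 was not called (SE 0.32, adjusted p = 0.187) and turned to -0.27 without that library. U14, which both guides a methylation of the 18S RNA and is needed for its processing, was measured through SNORD14A and SNORD14E. SNORD14A had 2.15 and 2.21 CPM in 2-D and 4.96 and 2.29 CPM in 3-D, both 3-D libraries being above both 2-D libraries, but its log2 fold change of 0.76 (SE 0.27, adjusted p = 0.124) was 0.07 without 3-D replicate 1. SNORD14E had 2.44 and 2.66 CPM against 3.31 and 2.79 CPM, again without overlap, with a log2 fold change of 0.26 (SE 0.18, adjusted p = 0.448).

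U8 (SNORD118) and U22 (SNORD22), which act in processing of the large and small subunit RNAs respectively, were counted at 0 in every library. By GENCODE 44, SNORD118 lies wholly in an exon of TMEM107 and SNORD22 wholly in an exon of SNHG1, and the U14 genes SNORD14B, SNORD14C and SNORD14D and the U3 gene SNORD3D, also at 0, lie wholly in exons of other genes too. Across the family, 117 of the 119 SNORD genes that lie wholly in same-strand exons of another gene had 0 counts, against 58 of the 170 that lie outside exons of other genes. Accordingly, 78 of the 82 members came from the latter 170, 3 of 25 lay partly in such exons, and SNORD20, inside an exon of the nucleolin gene NCL, was the only member wholly in one. The zeros of these genes are therefore given as listed values and not as absence of the RNA, and the part that overlapping annotation has in them was not tested. Of all SNORD genes, 189 were at 0 and 43 more had 1 to 19 counts, 252 counts together. The members nearest the threshold were SNORD114-27 with 21 and SNORD114-5 with 22 counts, and the nearest outside it were SNORD105 with 18 and SNORD127 with 17 counts.

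Among the guides of ribosomal RNA methylation, SNORD12C fell in 3-D and the most highly counted ones showed no called change. SNORD12C, a 28S guide, had 3.89 and 3.67 CPM in 2-D and 2.43 and 1.90 CPM in 3-D, without overlap. It fell by 0.79 on the log2 scale (SE 0.18, edgeR adjusted p = 0.0180), and its host, the long noncoding RNA ZFAS1, fell by 0.18 (SE 0.04, adjusted p = 0.0133). SNORD12B, partly in an exon of the same host, had 14 and 12 counts in 2-D and 5 and 2 in 3-D, and a log2 fold change of -1.11 (SE 0.57, adjusted p = 0.295).

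SNORD17, a 28S guide in an intron of the sorting nexin gene SNX5, was the most highly counted member outside the U3 family, although SNORD114-21, SNORD114-20 and SNORD13 exceeded it per length in 2-D. It had 43.8 and 47.0 CPM in 2-D and 52.3 and 30.4 CPM in 3-D. One 3-D library lay above and the other below both 2-D libraries, and the log2 fold change was -0.12 (SE 0.16, adjusted p = 0.731). SNORD15B, in an intron of the ribosomal protein gene RPS3, showed the same split, with 8.94 and 7.66 CPM against 15 and 6.53 CPM (log2 fold change 0.39, SE 0.25, adjusted p = 0.418). SNORD46, also a 28S guide, had 8.60 and 7.66 CPM in 2-D and 7.10 and 3.46 CPM in 3-D. Its 3-D libraries lay below the 2-D libraries, and its log2 fold change of -0.60 was not called (SE 0.22, adjusted p = 0.121). SNORD99, in an intron of SNHG12, had 4.33 and 3.08 CPM against 8.90 and 4.18 CPM, overlapping, with a log2 fold change of 0.83 (SE 0.27, adjusted p = 0.0835) that was 0.17 without 3-D replicate 1.

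The largest fitted rise, 1.35 for SNORD89 (SE 0.42, adjusted p = 0.0733), was 0.24 without 3-D replicate 1. SNORD89, partly in an exon of RNF149, had 39 and 23 counts in 2-D and 74 and 20 counts in 3-D, that is 1.13 and 0.75 CPM against 3.60 and 1.12 CPM, overlapping. After SNORD99, SNORD13 and SNORD14A, the next fitted rises were on fewer counts: SNORD53, in an intron of WDR43, had a log2 fold change of 0.59 (SE 0.42, adjusted p = 0.483) and SNORD70, in an intron of NOP58, one of 0.54 (SE 0.33, adjusted p = 0.389). SNORD105B, in an intron of PPAN, did not pass the filter on low counts with all libraries. It was called higher in the edgeR fit without a filter, and had 31 of its 57 counts in 3-D replicate 1. The members inside 8 ribosomal protein genes, 9 in all, had a median log2 fold change of -0.39, ranging from -1.04 to 0.76, and none was called. The 25 tested members inside other protein-coding genes had a median of -0.17 and 1 call, SNORD94. These calls stand beside 4.54% higher and 3.36% lower over all genes tested.

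SNORD94, which guides methylation of the spliceosomal U6 RNA, fell in 3-D. It had 120 and 66 counts in 2-D and 25 and 25 counts in 3-D, that is 3.48 and 2.14 CPM against 1.22 and 1.39 CPM, without overlap. The log2 fold change was -1.12 (SE 0.27, edgeR adjusted p = 0.0250), and the call rested on 2-D replicate 1, without which it was -0.72 with an adjusted p of 0.256. Its host PTCD3, a mitochondrial ribosome protein gene, had a log2 fold change of -0.08 (SE 0.03, adjusted p = 0.142). The other measured U6 guides, SNORD9 in CHD8 and SNORD67 in CKAP5, had log2 fold changes of -0.59 (SE 0.46, adjusted p = 0.524) and -0.31 (SE 0.42, adjusted p = 0.749). They had 50 and 56 counts in all.

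In the imprinted cluster of chromosome 14, which is expressed from the maternal chromosome, the neighbours SNORD114-21 and SNORD114-20 fell, and their host was not called. SNORD114-21 had 18.7 and 18.2 CPM in 2-D and 7.40 and 6.69 CPM in 3-D. Its libraries agreed closely within each condition, and the mean of 7.04 ± 0.50 CPM in 3-D (SD, n = 2) was 2.62-fold below the 18.4 ± 0.37 CPM of 2-D (SD, n = 2). The log2 fold change of -1.38 (SE 0.09) had the lowest adjusted p of the members, 3.66e-06 with edgeR. SNORD114-20 had 15.8 and 14.9 CPM in 2-D and 10.8 and 3.85 CPM in 3-D. It did not overlap between the conditions either, but its 3-D libraries stood far apart, and the log2 fold change was -1.04 (SE 0.26, adjusted p = 0.0289). It stayed called at -1.99 without 3-D replicate 1 and at -0.51 without 3-D replicate 2. MEG8, whose introns hold all 22 members of the cluster, had 356 ± 2.75 CPM in 2-D and 339 ± 3.62 CPM in 3-D (SD, n = 2), a log2 fold change of -0.07 (SE 0.03, adjusted p = 0.179).

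No other member of the chromosome 14 array was called. Of the 40 SNORD113 and SNORD114 genes listed, 22 were members and 17 were tested, of which 2 were called lower and 0 higher (beside 3.36% and 4.54% of all genes), and their median log2 fold change was -0.36. Without the called neighbours, the 15 tested genes had a median of -0.27, 12 of them below 0, and 0 calls. Their summed level was 24.4 and 24.2 CPM in 2-D and 21.1 and 17.8 CPM in 3-D, whereas the whole cluster summed to 58.9 and 57.3 CPM against 39.2 and 28.3 CPM. SNORD113-3, the next most highly counted, had 5.95 and 5.00 CPM against 5.11 and 3.96 CPM, overlapping (log2 fold change -0.27, SE 0.16, adjusted p = 0.372). SNORD114-31 had the largest fitted fall of the cluster, -1.57, on 26 and 20 counts in 2-D and 4 and 5 in 3-D, and was not called (SE 0.46, adjusted p = 0.0585). SNORD113-9 was similar, with 37 and 25 counts against 9 and 7 (log2 fold change -1.18, SE 0.38, adjusted p = 0.0836). The values of SNORD113-2, at 1.66 CPM in both 2-D libraries and 1.70 and 2.51 CPM in 3-D, went the other way without a call (log2 fold change 0.33, SE 0.24, adjusted p = 0.472).

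**Figure D3:**
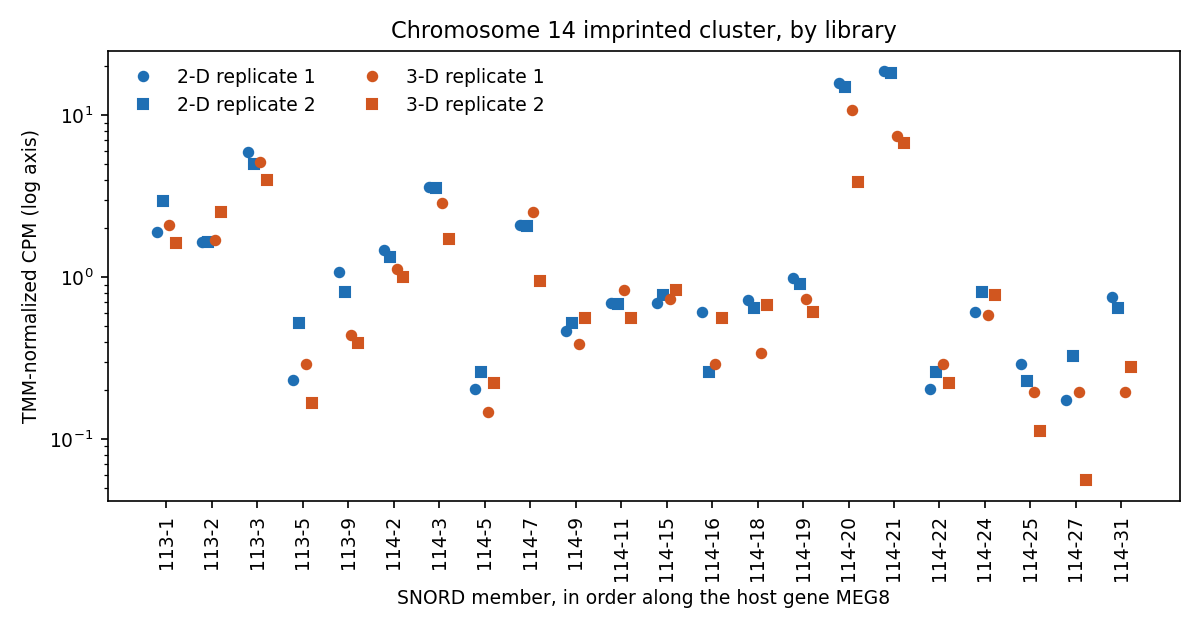
TMM-normalized CPM (y axis, log scale) of the 22 members of the chromosome 14 imprinted cluster, in their order along MEG8 (x axis), in each library, 2-D in blue and 3-D in orange, circles for replicate 1 and squares for replicate 2. SNORD114-20 and SNORD114-21 stand above the others at 14.9 to 18.7 CPM in 2-D and 3.85 to 10.8 CPM in 3-D, and most others overlap between the conditions.

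In the chromosome 15 imprinted region, whose SNORD116 array is deleted in Prader-Willi syndrome, 4 of 88 listed SNORD genes were members and no change was called. The 3 tested genes had a median log2 fold change of -0.08 and 0 calls, beside 4.54% higher and 3.36% lower over all genes tested. The highest, SNORD116-17, had 2.73 and 2.17 CPM in 2-D and 2.43 and 1.79 CPM in 3-D, overlapping, with a log2 fold change of -0.21 (SE 0.22, adjusted p = 0.654), and it has 7 near-identical copies. The host SNHG14 fell by 0.13 (SE 0.03, edgeR adjusted p = 0.0198), from 2499 ± 12 to 2285 ± 53.6 CPM (SD, n = 2). In the exons of SNHG14, 36 SNORD genes were listed at 0, and in those of MEG8, 9.

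Fitted changes of the host genes were mostly smaller than those of the SNORD genes inside them. The members lay in 37 hosts, 30 protein-coding and 7 long noncoding, and 69 of the 82 lay wholly in an intron. Read counts on an intronic SNORD gene do not separate the snoRNA from unspliced RNA of its host. The part of unspliced host RNA in the member values was not tested. Of the 36 hosts measured, 6 were called higher and 11 lower (beside 4.54% and 3.36% of all genes), with a median log2 fold change of -0.07. Small changes could be called in highly counted hosts, such as SNHG14 at -0.13 (SE 0.03, beside a median of 0.12 over all genes). The hosts were not compared with genes of similar counts. The count called lower was 21 with library size only and 5 without 2-D replicate 1. Over the 58 tested members with a measured host, the median size of the log2 fold change was 0.37 for the snoRNA and 0.07 for the host, and the snoRNA's was the larger in 45. The fitted error was larger as well, with a median SE of 0.32 for the members against 0.12 for all genes, and whether the snoRNAs spread more widely than this error was not tested. The 4 called members with a measured host were SNORD114-21, SNORD114-20, SNORD12C and SNORD94, and in 1 of these cases, SNORD12C in ZFAS1, the host was called too. The host was called, in either direction, in 23 of the 58 pairs, and in 1 of these the member was called too. The largest host change was that of SNHG25, the host of SNORD104. SNHG25 had 150 and 121 counts in 2-D and 46 and 23 in 3-D, and fell by 1.21 (SE 0.22, edgeR adjusted p = 0.00461). SNORD104 had 3.08 and 4.38 CPM in 2-D and 4.77 and 1.95 CPM in 3-D (log2 fold change -0.12, SE 0.29, adjusted p = 0.876). SNORD104 lies in an intron of SNHG25.

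**Figure D4:**
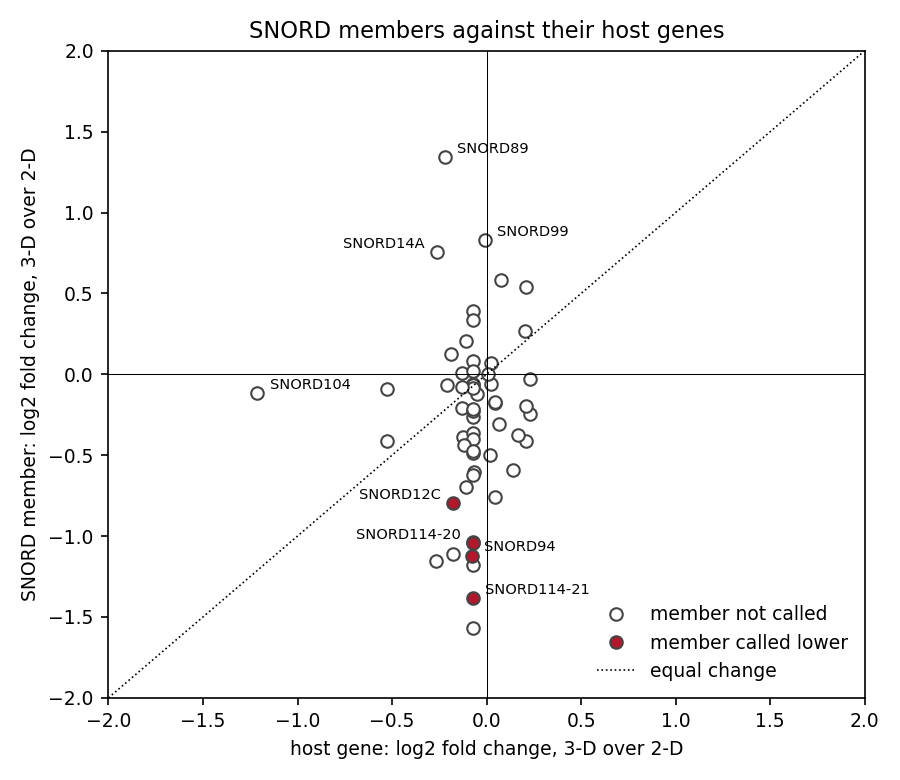
Log2 fold change of 3-D over 2-D for 58 SNORD members (y axis) against that of their host genes (x axis), 1 point per member, red where the member was called lower, with the dotted line at equal change. Most points lie in a narrow column near 0 on the x axis, while the members spread from -1.57 to 1.35, and SNORD104 stands apart on the left with its host at -1.21.

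The proteins of the C/D particle changed by small amounts in both directions. NOP58 rose from 170 ± 0.64 to 196 ± 16.2 CPM (SD, n = 2), a log2 fold change of 0.21 (SE 0.04, edgeR adjusted p = 0.0133). Fibrillarin (FBL), the methyltransferase, fell by 0.17 (SE 0.04, adjusted p = 0.0195), and SNU13, which binds the box C/D motif first, fell by 0.17 (SE 0.03, adjusted p = 0.00872). NOP56 had a log2 fold change of 0.10 (SE 0.03, adjusted p = 0.0976). Of the 8 tested assembly factors, RUVBL1 was called, rising by 0.21 (SE 0.03, adjusted p = 0.000779), and 0 were called lower. Over all genes tested, 4.54% were called higher and 3.36% lower. Of 13 genes for capping, transport and trimming, PHAX, which exports and then transports capped small RNAs, rose by 0.18 (SE 0.04, adjusted p = 0.00951), whereas the debranching enzyme DBR1 fell by 0.24 (SE 0.07, adjusted p = 0.0416) and LARP7, which binds the 7SK and U6 RNAs, fell by 0.41 (SE 0.05, adjusted p = 0.000454). The 4 proteins of the H/ACA particle, DKC1, NHP2, NOP10 and GAR1, had log2 fold changes of -0.12 to 0.05 and no call.

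Apart from U3, the level of the class depended on the 3-D library. The members without SNORD3A took 0.0462% and 0.0352% of the counts in 2-D against 0.0362% and 0.0185% in 3-D. The conditions overlapped, and the means differed 1.49-fold, a difference that was 2.20-fold without 3-D replicate 1 and 1.12-fold without 3-D replicate 2. Leaving out the whole U3 family, the shares were 0.0219% and 0.0212% against 0.0241% and 0.0139%, so the 3-D libraries lay on either side of the 2-D libraries. 3-D replicate 2 was below 3-D replicate 1 in 45 of the 66 tested members, with a median log2 ratio of -0.32, beside -0.00033 over all genes. Between the 2-D libraries, replicate 2 was also the lower in 44 of 66, with a smaller median log2 ratio of -0.10. Of the 37 members with 100 or more counts other than SNORD3A, replicate 2 was the lower in 31 in 3-D and in 25 in 2-D. Calls moved with it: without 3-D replicate 1, 15 of 76 members tested were called lower and 0 higher, beside 4.76% and 5.95% of all genes in that fit. Without 3-D replicate 2, 7 of 76 were called lower and 8 higher, beside 3.99% and 5.75% of all genes, with SNORD17 at -0.58 in the former and 0.21 in the latter, called in both.

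The same ordering of the 3-D libraries was seen in other short RNAs. The median log2 ratio of 3-D replicate 2 over replicate 1 was -0.37 over 48 H/ACA snoRNA genes (SNORA) and -0.69 over 10 Cajal body RNA genes (SCARNA). It was -0.35 over 73 genes named RNU or RNVU (spliceosomal RNAs and their relatives). Over 342 tested genes of at most 150 exonic bases not named SNORD it was -0.21. Short genes of the classes just named were not left out of that set, so it is not independent of them. Over genes of more than 1000 exonic bases the ratio was 0.0035. Calls of 3-D against 2-D in the classes stand beside 4.54% higher and 3.36% lower over all genes. The 48 tested SNORA genes had a median log2 fold change of 0.08 with 2 called higher and 0 lower, the 73 RNU and RNVU genes one of 0.13 with 8 higher and 1 lower, and the 65 SNORD members without SNORD3A one of -0.21 with 0 higher and 5 lower. Both 3-D libraries lay below both 2-D libraries in 19 and above them in 6 of the 63 SNORA genes with 20 or more counts. Over all genes tested these shares were 25.1% and 25.4%. Among 345 tested genes of at most 150 exonic bases not named SNORD, with short SNORA genes not left out, 102 lay below and 62 above. Of the abundant RNAs, both counted genes of 7SL, the RNA of the signal recognition particle, were also called lower, at -0.94 and -1.01, and summed to 7099 and 6857 CPM in 2-D and 4090 and 3126 CPM in 3-D. The part that this ordering of the libraries has in the SNORD values was not tested, nor was any difference between the classes.

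**Figure D5:**
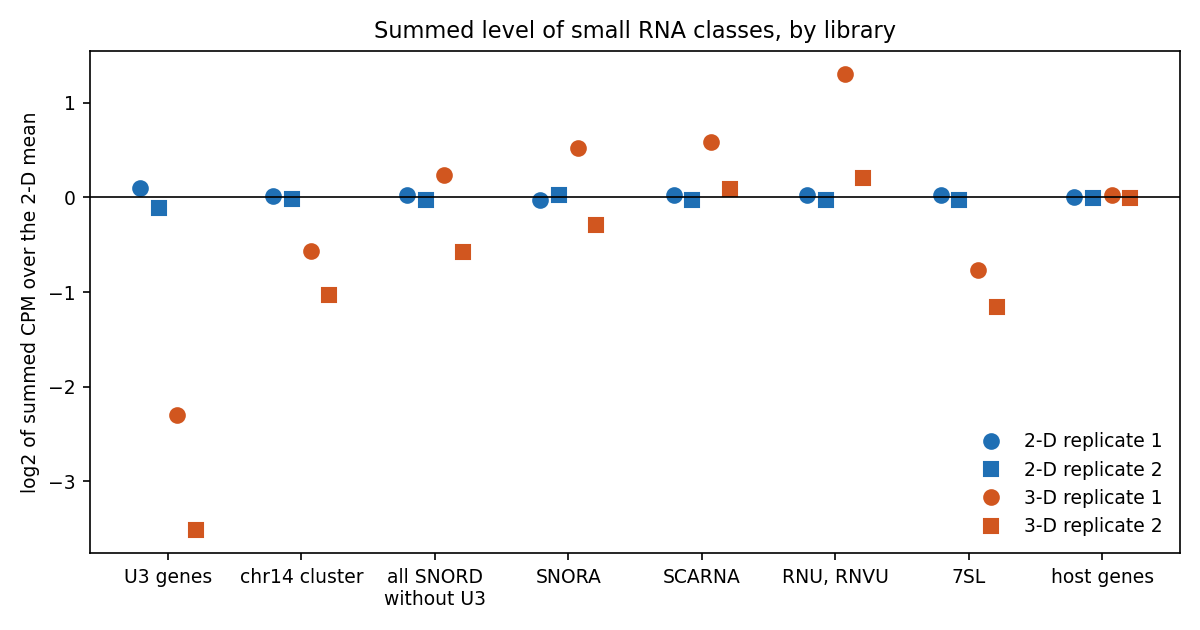
Log2 of the summed TMM-normalized CPM of each class over the mean of its 2-D libraries (y axis) for the U3 genes, the chromosome 14 cluster, the SNORD members without U3, SNORA, SCARNA, RNU and RNVU, 7SL and the host genes (x axis), 2-D in blue and 3-D in orange, circles for replicate 1 and squares for replicate 2. Both 3-D points lie below the 2-D points for U3, the chromosome 14 cluster and 7SL, they lie on either side for the SNORD members without U3 and for SNORA, and 3-D replicate 2 is below 3-D replicate 1 in every class.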

How the data were processed

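RNA of 2-D and 3-D grown Elf1 cells was sequenced after ribosomal RNA depletion, in 4 libraries. Per the submitters' processing notes and methods, reads were trimmed (Trim Galore 0.6.3), mapped to hg38 (HISAT2 2.1.0) and counted on GENCODE 30 genes (featureCounts 1.6.4). The authors deposited raw counts for each gene, 1 file per library. Strand and multi-mapping options were not given in the sources used here, so values of overlapping genes and of copies are uncertain. A deposited table of counts divided by DESeq2 size factors, with the authors' fold changes, standard errors, test statistics and p-values, was not used.

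Names, positions and hosts came from GENCODE 44, in which 60295 of 60564 identifiers were matched. A host is a gene of another name on the same strand that spans the SNORD gene. Counts were tested with edgeR 4.0.16 in R 4.3.3 (TMM, its low count filter, quasi-likelihood test, condition alone, Benjamini-Hochberg adjustment over 22555 genes), with calls at an adjusted p below 0.05. The SE is the size of the log2 fold change over the square root of F. CPM are TMM-normalized. Libraries of 1 condition differed beyond counting error (chi-square per degree of freedom 2.45 for 2-D, 4.39 for 3-D). This cannot show that they came from separate cultures, so each counted as a replicate on the submitters' label. Shares have exact (Clopper-Pearson) 95% intervals. Copies were found with blastn 2.17.0. The steps were tested on simulated counts.

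Genes named are SNORD3A, all called members, the 12 members of highest mean CPM, the 6 largest log2 fold changes in each direction, the highest member of each family or cluster, the core proteins, hosts of named members (1 of which is not reported here) and members next to the threshold. Others, such as SNORD12B, SNORD104, SNORD105B, SNORD113-2 and the genes of short RNA classes, were named after their values were seen. Members and lists were chosen with earlier results of these data known. Alternatives were DESeq2 1.42.0, the likelihood ratio test, other normalizations and filters, other member thresholds, members without copies, a replicate block and leaving out each library.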

Additional observations from a re-analysis of the deposited data

How the results depend on the processing

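SNORD3A was called lower in every alternative, at log2 fold changes between -3.63 and -2.43, and SNORD3B-2, SNORD114-20, SNORD114-21 and SNORD12C were called lower in every edgeR fit. The main fit called 0 members higher and 6 lower. The likelihood ratio test called 1 of 66 members higher and 8 lower, beside 651 and 488 of 22555 genes. Without a filter on low counts, 6 of 82 members were called higher and 12 lower, beside 1358 and 1128 of 42231 genes. DESeq2 called 0 members higher and 1 lower, beside 509 and 285 of 42231 genes fitted, and gave an adjusted p for 6 members only. Member thresholds of 10 or 50 counts left 0 higher and 6 lower, and the members without a near-identical copy gave 0 higher and 4 lower. Leaving out 1 library gave 0 to 8 members higher and 7 to 15 lower. The lone library of a condition is then assumed to vary like the other pair. The median without SNORD3A ranged from -0.45 to -0.14 under these omissions, and the fold of the share of counts from 1.12 to 2.20. Without 3-D replicate 1, SNORD13 was at -0.27, SNORD15B at -0.35 and SNORD17 at -0.58, and without 3-D replicate 2 they were at 1.35, 0.85 and 0.21, each on the other side of 0. The cause was not tested.

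With a replicate block, 4 of 66 members were called higher and 9 lower, beside 1223 and 944 of all 22555 genes tested. Nothing in the labels ties same-numbered libraries, and their deviations had a correlation of -0.0079 over all genes tested. A value over all genes cannot decide whether the SNORD members shared a replicate effect. Among the 66 tested members, replicate 2 was below replicate 1 in 44 in 2-D and in 45 in 3-D. The main fit used condition alone, and pairing of the samples was not settled.

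Hosts called higher, 6, became 3 with library size only (which shifts the median of all genes to -0.06), and 5 to 9 with a library left out. Hosts called lower, 11, became 7 with the likelihood ratio test, 21 with library size only and 5 to 18 with a library left out. C/D proteins and assembly factors called higher, 2, became 1 with library size only, 4 without a filter and 2 to 4 with a library left out, and those called lower, 2, became 1 with DESeq2 or the likelihood ratio test and 0 to 3 with a library left out. SNORA genes called higher, 2, became 0 with DESeq2, 4 without a filter, 1 with at least 10 counts in every library and 0 to 8 with a library left out, and those called lower, 0, became 1 without a filter and 0 to 5 with a library left out.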
